A study of Mus musculus with 9 samples.

Results

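Trophectoderm transcription factors were read here across 9 libraries of mouse embryos: Cdx2, Gata3, Gata2, Tfap2a, Tfap2c and Eomes, chosen by name because they set up or maintain the outer cell layer of the blastocyst. All 6 symbols were present among the 16070 rows of the expression table. The embryos were C57BL/6 and were cultured in vitro, and every group, wild type included, was labelled as 4.5 days after microinjection, about the late blastocyst stage. The 3 groups held 3 libraries each. They were wild type (WT), embryos labelled with a histidine in place of arginine 17 of histone H3 (H3R17H, made by CRISPR-Cas9 editing per the series title), and embryos labelled as lacking the arginine methyltransferase Carm1 (Carm1-/-). The labels do not say what WT embryos were injected with. They name the source both as E4.5 embryo and as cDNA reverse transcribed from a single cell. They do not say that replicates were separate embryos. The p-values therefore cover only library-to-library spread, which may be technical. Among libraries labelled H3R17H, and among those labelled Carm1-/-, only replicate 1 held Y-linked transcripts, so spread there may also lie between embryos. Values are FPKM, fragments normalized to gene length and to the mapped fragments of the library, and levels of different genes are therefore compared per length.

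The trophectoderm is the epithelium that surrounds the blastocyst cavity, implants, and forms the fetal part of the placenta. In outer cells low Hippo signalling lets Yap1 enter the nucleus and act with Tead4, which turns on Cdx2 and Gata3. Cdx2, a homeodomain protein, holds down pluripotency genes in these cells, Gata3 and Gata2 are zinc finger proteins that promote trophoblast genes, Tfap2c and Tfap2a are AP-2 proteins of the same layer and its descendants, and Eomes, a T-box protein, is needed for trophectoderm to develop further and for trophoblast stem cells.

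RefSeq promoter windows (GRCm38.p6) were held for 5 of the 6 factors, in 7 windows. The 4 below are shown because they hold matches to motifs of the factors themselves or of TEAD proteins. They run 5′ to 3′ on the strand of the gene and give the 250 bases before the transcription start. Capitals mark the matches.
Gata3 (chr2:9878601-9878850, minus strand): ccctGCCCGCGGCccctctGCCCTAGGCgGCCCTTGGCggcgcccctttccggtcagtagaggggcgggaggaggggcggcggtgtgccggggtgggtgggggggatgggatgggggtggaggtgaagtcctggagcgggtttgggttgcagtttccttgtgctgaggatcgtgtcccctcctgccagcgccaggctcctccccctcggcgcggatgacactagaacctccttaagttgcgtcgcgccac
Cdx2 (chr5:147307250-147307499, minus strand): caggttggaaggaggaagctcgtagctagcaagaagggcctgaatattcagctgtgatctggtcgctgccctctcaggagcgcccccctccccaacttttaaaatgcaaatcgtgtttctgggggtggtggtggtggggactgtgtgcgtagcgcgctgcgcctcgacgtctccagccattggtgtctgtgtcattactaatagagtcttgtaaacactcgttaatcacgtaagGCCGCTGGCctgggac
Gata2 (chr6:88198414-88198663, plus strand): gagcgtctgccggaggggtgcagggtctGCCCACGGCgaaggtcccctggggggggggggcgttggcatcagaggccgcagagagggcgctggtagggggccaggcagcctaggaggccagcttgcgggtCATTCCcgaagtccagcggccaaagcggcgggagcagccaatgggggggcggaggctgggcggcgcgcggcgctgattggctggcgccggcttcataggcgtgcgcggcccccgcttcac
Tfap2a (chr13:40734921-40735170, minus strand): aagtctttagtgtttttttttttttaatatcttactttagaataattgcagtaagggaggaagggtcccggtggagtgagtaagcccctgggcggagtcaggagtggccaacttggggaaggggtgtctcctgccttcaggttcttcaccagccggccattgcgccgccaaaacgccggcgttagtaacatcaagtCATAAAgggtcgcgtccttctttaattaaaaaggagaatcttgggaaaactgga

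Each motif was searched on both strands over the 300 bases from 250 before to 50 after the start, and no match overlapped another. The TFAP2 motif GCCNNNGGC matched in 3 of the 7 windows, against 16.6% of all 32851 windows. Gata3 held 3 such matches, which began 246, 231 and 221 bases before the start, Cdx2 held 1, 16 bases before it, and Gata2 held 1, 222 bases before it. The share of G and C in the printed bases was 70.0% for Gata3, 55.2% for Cdx2 and 74.0% for Gata2, against a median of 52.4% over all windows. This motif is itself rich in G and C, so no excess of it is read here. The TEAD motif GGAATG matched once, on the other strand (CATTCC) of the Gata2 window, 120 bases before the start, and 14.7% of all windows held it. The CDX motif TTTATG matched once, as CATAAA in the Tfap2a window 54 bases before the start, against 11.9% of all windows. The GATA motifs AGATAA and TGATAA and the T-box motif AGGTGT matched in 0 of the 7 windows, against 11.2%, 9.05% and 13.7% of all. These are matches of letters, not measured binding.

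Carm1 checks the labels and went against them. Carm1 stood at 6.65 to 8.86 FPKM in WT, at 0.02 to 1.88 FPKM in H3R17H-labelled libraries and at 6.44 to 12.68 FPKM in those labelled Carm1-/-, so each group below is named by its label and no direction is tied to a genotype. The column names of the table and the sample descriptions also cross the titles. Names that begin with Carm belong to libraries titled H3R17H, and names that begin with Hist to libraries titled Carm1-/-. Whether the edited labels were exchanged was not tested. Replicate 1 labelled Carm1-/- stood closer to WT than its group: over the 11850 tested genes its root mean square log2 difference from the WT mean was 0.66, against 1.11 and 0.89 in replicates 2 and 3, 0.66 to 0.94 in H3R17H-labelled libraries, and 0.48 to 0.56 for each WT library against the other two. The same library and replicate 1 labelled H3R17H alone among the edited libraries held Y-linked transcripts (summed FPKM of 4 genes 28.1 and 36.6). All 3 WT libraries had them (30.7 to 35.7), so sex cannot be told apart from genotype in the other 4 edited libraries. Those 4 held Xist, made from an inactive X chromosome, at 16.6 to 32.5 FPKM. WT held 0.19 to 0.43 FPKM of it and replicate 1 labelled Carm1-/- 0.26 FPKM. Replicate 1 labelled H3R17H held Xist too (4.84 FPKM), and so it was not a clear match to WT in sex. Total FPKM lay between 521143 and 567858, and read depth is unknown. Each library had trophectoderm and inner cell mass transcripts side by side, Krt8 at 518 to 4025 FPKM and Nanog at 36.1 to 63.5 FPKM.

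In WT the factors covered a wide range of levels. Gata3 (chromosome 2, 9857078 to 9890034, minus strand, GENCODE M21 on GRCm38) was by far the most abundant, at 277, 318 and 369 FPKM in replicates 1 to 3, and ranked between 260 and 352 of all 16070 rows. It made up 80.6% to 88.6% of the summed FPKM of the 6 factors. Tfap2c (chromosome 2, 172549593 to 172558622, plus strand) came next at 46.3, 24.1 and 25.7 FPKM. Eomes (chromosome 9, 118478212 to 118486132, plus strand) stood at 5.82, 5.79 and 11.9 FPKM, and Cdx2 (chromosome 5, 147300805 to 147307270, minus strand) at 10.2, 7.13 and 5.0 FPKM. These neighbours in the order overlapped: Eomes was the higher in 1 of 3 WT libraries. Tfap2a (chromosome 13, 40715302 to 40738376, minus strand) stood at 2.78, 1.90 and 4.38 FPKM and Gata2 (chromosome 6, 88193891 to 88207032, plus strand) at 1.62, 1.80 and 3.91 FPKM. Their ranges overlapped as well, although Tfap2a was the higher in each of the 3 libraries. Gata3 stayed above Tfap2c, and Tfap2c above the other 4 factors, in all 9 libraries.

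**Figure D1:**
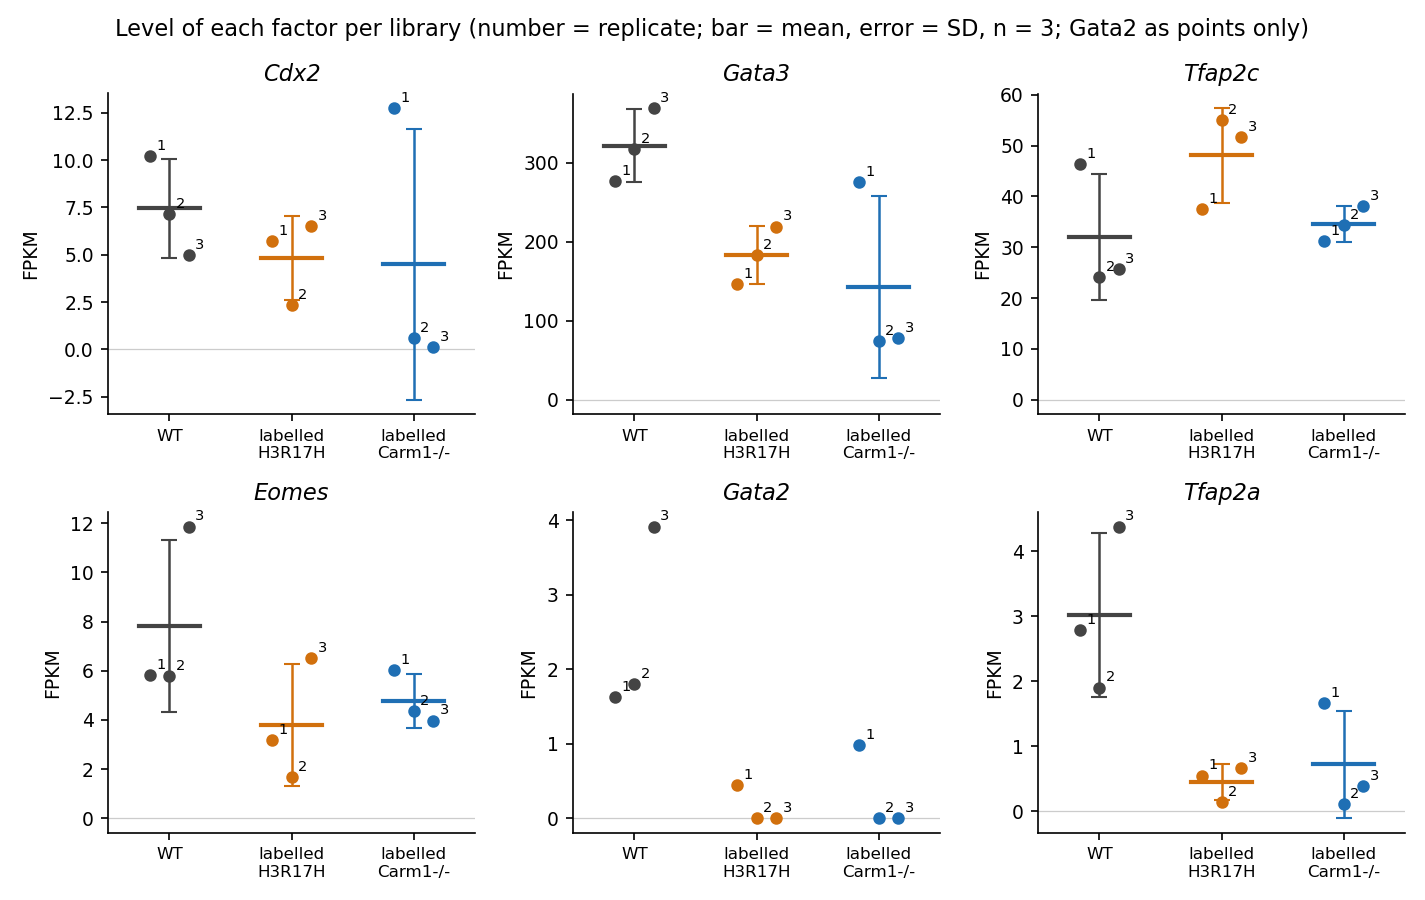
FPKM of each factor (y axis, linear, a scale of its own per panel) in the 9 libraries, by label (x axis), with points numbered by replicate, the mean as a bar and the SD as an error bar (n = 3), which can reach below 0; Gata2, listed at 0 in 4 libraries, is drawn as points only. Gata3 lies at 277 to 369 FPKM in WT, while replicates 2 and 3 labelled Carm1-/- hold 73.9 and 77.7 FPKM, and Tfap2c alone has its highest values among H3R17H-labelled libraries.

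Setting H3R17H-labelled libraries against WT asks how an unmethylatable residue at H3R17 affects the embryo, if the label holds. The Carm1 values above put that label in doubt. Of the 6 factors 5 had lower values and Tfap2c had higher values, and none passed the test. The median log2 difference of the 6 was -0.88, against -0.03 over all 11850 tested genes. Tests were made with limma on log2(FPKM + 1). The p-values were adjusted by Benjamini-Hochberg across the tested genes, and the threshold was 0.05. At that threshold 0% of tested genes were called, at an unadjusted p under 0.05 there were 1677, and the lowest adjusted p was 0.0765.

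Gata2 and Tfap2a lay lowest relative to WT. Gata2 stood at 0.44 FPKM in replicate 1 labelled H3R17H and was listed at 0 in replicates 2 and 3, all below the lowest WT library (1.62). Its difference was -1.55 (SE 0.40, limma adjusted p = 0.224), on a scale where the added 1 keeps a value of 0 from giving a fold. Tfap2a stood at 0.55, 0.14 and 0.67 FPKM, below the WT minimum of 1.90, a difference of -1.44 (SE 0.41, limma adjusted p = 0.23). Gata3 was also below WT in every library, at 147, 183 and 219 FPKM. Its means were 183 ± 36.2 against 321 ± 46.2 FPKM in WT (SD, n = 3), a difference of -0.82 (SE 0.43, limma adjusted p = 0.411). Non-overlapping lower groups were thus seen for 3 of the 6 factors, where 15.6% of all tested genes had them, and an unadjusted p under 0.05 with a lower value for Gata2 and Tfap2a, where 7.75% of tested genes had one. A gene needed at least 1 FPKM in at least 3 libraries to be tested, and Gata2 and Tfap2a met this only through WT: no edited library reached 1 FPKM of Gata2, and 1 reached it for Tfap2a. Genes admitted by the group where they are high had to differ, so these counts and the median of the 6 are not support for a difference.

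Cdx2 and Eomes overlapped with WT. Cdx2 stood at 5.70, 2.34 and 6.52 FPKM, a difference of -0.57 with a 95% interval from -2.32 to 1.19 (limma adjusted p = 0.775). Eomes stood at 3.18, 1.66 and 6.50 FPKM, a difference of -0.95 with an interval from -1.90 to 0.01 (limma adjusted p = 0.358). Without replicate 2 labelled H3R17H the difference was -0.20 for Cdx2 and -0.59 for Eomes, and without WT replicate 1 that of Cdx2 was -0.34. In both, replicate 2 was the lowest and replicate 3 within the WT range. Tfap2c went the other way, at 37.5, 55.0 and 51.7 FPKM. Its difference of 0.61 (SE 0.29) had an interval from -0.02 to 1.25 and did not pass (limma adjusted p = 0.364); WT replicate 1, at 46.3 FPKM, lay above the lowest of these libraries. With only the WT and H3R17H libraries in the fit 2.03% of tested genes were called, and none of the 6 factors, the lowest adjusted p among them being 0.063 for Gata2.

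The libraries labelled Carm1-/- were compared with WT to ask what loss of the methyltransferase changes, if that label holds, which the Carm1 values also put in doubt. Again 5 factors had lower values, Tfap2c had a slightly higher one, and none passed in the fit of all 9 libraries, which called 0% of tested genes (1355 had an unadjusted p under 0.05, and the lowest adjusted p was 0.109). The median of the 6 was -1.34, against -0.04 over all tested genes. Both comparisons use the same WT libraries, so they are not independent of each other.

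Values within this label differed widely between libraries. Cdx2 stood at 12.7 FPKM in replicate 1, above every WT library, and at 0.60 and 0.14 FPKM in replicates 2 and 3, the lowest of the 9. Gata3 stood at 276, 73.9 and 77.7 FPKM, with replicate 1 just under the lowest WT library. Gata2 stood at 0.98 FPKM in replicate 1 and was listed at 0 in both others, and Tfap2a stood at 1.66, 0.11 and 0.38 FPKM. Gata3, Gata2 and Tfap2a were therefore below WT in all 3 libraries, where 9.71% of tested genes had non-overlapping lower groups. Each had an unadjusted p under 0.05, where 6.19% of tested genes had one on the lower side. As above, Gata2 and Tfap2a were tested only because of their WT values, and nothing is read from these counts. Eomes varied less, at 6.03, 4.34 and 3.97 FPKM, and Tfap2c stood at 31.2, 34.4 and 38.1 FPKM, inside the WT range.

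With all 9 libraries the difference of Gata3 was -1.44 (SE 0.43, limma adjusted p = 0.281), that of Cdx2 -1.48 (SE 0.79, limma adjusted p = 0.487), that of Gata2 -1.40 (SE 0.40, limma adjusted p = 0.266) and that of Tfap2a -1.28 (SE 0.41, limma adjusted p = 0.3). Replicate 1 labelled Carm1-/- was the only library of that label with Y-linked transcripts, which all WT libraries had. Without it these 4 factors had lower values than WT and passed, and 2.14% of tested genes were called lower. Sex cannot be told apart from the label in that fit, and Gata2 and Tfap2a were tested only because of their WT values. The difference in that fit was -2.06 for Gata3 (limma adjusted p = 0.0054), -2.60 for Cdx2 (limma adjusted p = 0.0198), -1.72 for Gata2 (limma adjusted p = 0.0423) and -1.65 for Tfap2a (limma adjusted p = 0.0462). Without replicate 3 of that label, in contrast, the difference of Cdx2 was -0.80. Eomes differed by -0.56 with a 95% interval from -1.51 to 0.40 with all libraries and by -0.25 without WT replicate 3 (limma adjusted p = 0.91). Without replicate 1 labelled Carm1-/- Eomes differed by -0.71 and did not pass either (limma adjusted p = 0.403). For Tfap2c the interval ran from -0.47 to 0.80, and the difference of 0.16 turned to -0.0032 without WT replicate 2.

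**Figure D2:**
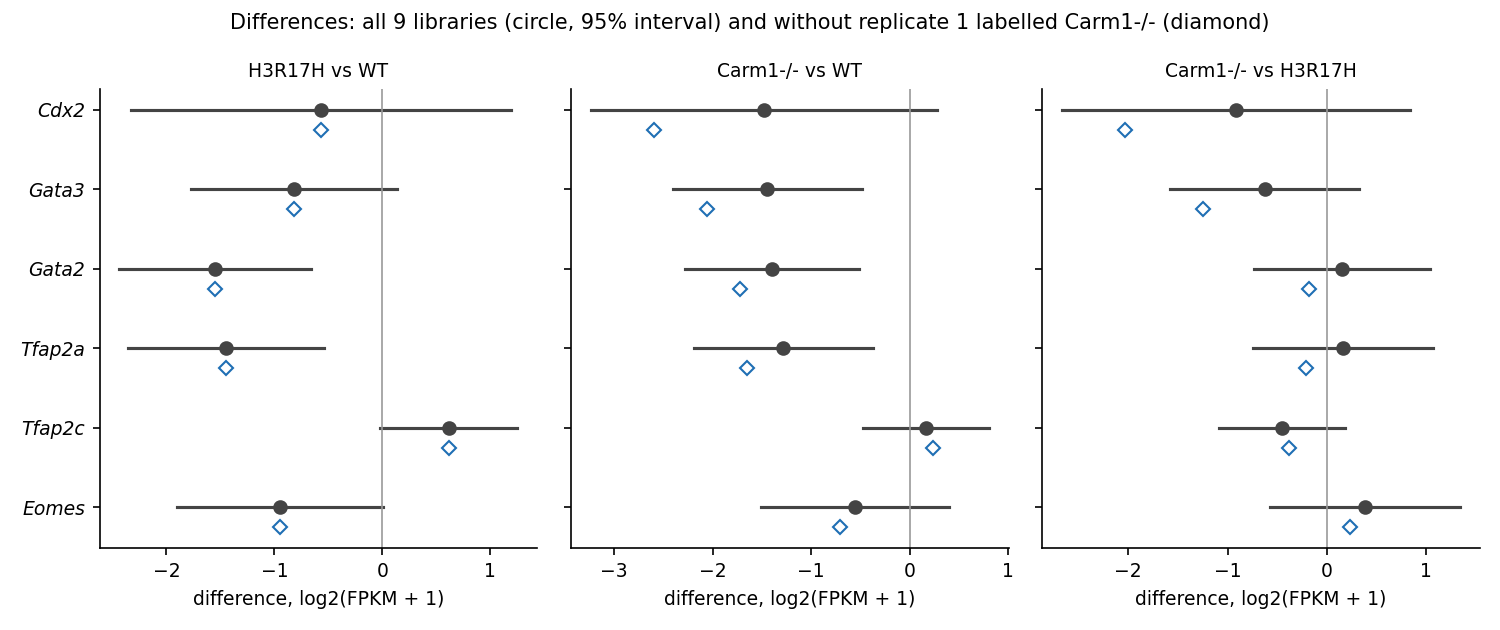
Differences on the log2(FPKM + 1) scale (x axis) for each factor (y axis) in the 3 comparisons; circles with lines are limma estimates from all 9 libraries with 95% intervals, and open diamonds are estimates without replicate 1 labelled Carm1-/-. In Carm1-/- vs WT the diamonds of Cdx2 and Gata3 lie at -2.60 and -2.06, further from 0 than the circles at -1.48 and -1.44, while Tfap2c is the only factor right of 0 in both comparisons with WT.

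Among the libraries with Y-linked transcripts the values were as follows. Gata3 was 277 to 369 FPKM in WT, 147 FPKM in replicate 1 labelled H3R17H and 276 FPKM in replicate 1 labelled Carm1-/-. Tfap2a was 1.90 to 4.38, 0.55 and 1.66 FPKM, and Gata2 was 1.62 to 3.91, 0.44 and 0.98 FPKM in the same order. Gata2, Tfap2a and Gata3 lay below WT in both edited libraries of this set, Gata3 only just in the one labelled Carm1-/-. Cdx2 did not, at 5.70 and 12.7 FPKM against 5.0 to 10.2 FPKM. Each edited label has 1 library here, and the one labelled H3R17H also held Xist (4.84 FPKM). Gata2 and Tfap2a were tested only because of their WT values, so nothing is read from this. With a term for Y-linked transcripts the difference of Cdx2 in H3R17H vs WT turned from -0.57 to 0.69, and in Carm1-/- vs WT it shrank from -1.48 to -0.23. The same term took Gata3 from -0.82 to -0.35 in H3R17H vs WT and from -1.44 to -0.98 in Carm1-/- vs WT. Gata2 went from -1.55 to -1.05 and from -1.40 to -0.89, and Tfap2a from -1.44 to -1.02 and from -1.28 to -0.86. Tfap2c went from 0.61 to 0.38 and from 0.16 to -0.07. No factor passed in this fit.

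The libraries labelled Carm1-/- and H3R17H were also set against each other. No factor passed, 0% of tested genes were called (973 had an unadjusted p under 0.05, the lowest adjusted p being 0.0522), and the ranges of all 6 factors overlapped, against 11.2% of tested genes with groups apart in either direction. The largest differences were -0.91 for Cdx2 (95% interval -2.67 to 0.84) and -0.63 for Gata3 (-1.58 to 0.33). Leaving out 1 library moved these between -2.03 and -0.23 for Cdx2 and between -1.24 and -0.30 for Gata3. The lowest values came without replicate 1 labelled Carm1-/-, and the highest without replicate 3 of that label for Cdx2 and without replicate 2 for Gata3. Gata2 and Tfap2a differed by 0.15 (-0.73 to 1.04) and 0.16 (-0.75 to 1.07), and both signs turned without replicate 1 labelled Carm1-/-, to -0.18 and -0.21. These intervals leave room for differences of either sign.

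Fewer trophectoderm cells and less RNA per cell cannot be told apart in such libraries, so the factors were also set against 17 trophectoderm effector genes of the same library, such as the keratins Krt8 and Krt18, the fatty acid binding protein Fabp3 and the aquaporin Aqp3. Such a ratio does not depend on the scaling of the library. These ratios were chosen after the values were seen, and 3 libraries against 3 cannot go below an exact two-sided p of 0.1, so they are given without a test. How many other genes would separate the groups in such ratios was not counted, so separation in them is a description only. The summed effector level was 9367 to 13350 FPKM in WT, 4103 to 8209 FPKM in H3R17H-labelled libraries, and 16135, 5330 and 5973 FPKM in replicates 1 to 3 labelled Carm1-/-. Krt8 and Krt18 supplied 30.4% to 55.4% of it.

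Per 1000 FPKM of the effector genes Gata3 was close to even in WT, at 29.6, 28.3 and 27.7 FPKM. It was 35.8, 41.2 and 26.7 FPKM in H3R17H-labelled libraries, on both sides of WT. In those labelled Carm1-/- it was 17.1, 13.9 and 13.01 FPKM, below all WT libraries and below all libraries labelled H3R17H. Replicate 1 is included in that: its Gata3 was near WT in FPKM, but its effector genes were the highest of the 9 libraries. Krt8 and Krt18 are part of the effector sum, so a ratio to them is no separate check. Against Krt8 and Krt18 alone Gata3 was 49.97 to 61.5 FPKM per 1000 in WT and 33.7, 39.5 and 32.1 FPKM in the libraries labelled Carm1-/-, again without overlap. In H3R17H-labelled libraries it was 108, 135 and 51.7 FPKM per 1000, above the WT range in replicates 1 and 2 and within it in replicate 3, although Gata3 in FPKM was below WT in all 3.

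Tfap2c went the opposite way to Gata3 only in replicates 2 and 3 labelled Carm1-/- and in replicate 3 labelled H3R17H. In replicates 1 and 2 labelled H3R17H both ratios to the effector genes were above WT. Per 1000 FPKM of effector genes Tfap2c was 4.94, 2.15 and 1.92 FPKM in WT, and 9.14, 12.4 and 6.30 FPKM in H3R17H-labelled libraries, all above WT. In the libraries labelled Carm1-/- it was 1.93, 6.45 and 6.38 FPKM, with replicate 1 inside the WT range. The balance of the 2 most abundant factors differed in the same way. Tfap2c was 16.7%, 7.60% and 6.95% of Gata3 in WT, 25.6%, 30.0% and 23.6% in H3R17H-labelled libraries, and 11.3%, 46.5% and 49.0% in those labelled Carm1-/-. Within the AP-2 pair Tfap2a was 6.02%, 7.88% and 17.1% of Tfap2c in WT and 1.46%, 0.247% and 1.29% in H3R17H-labelled libraries. It was 5.33%, 0.328% and 1.01% in those labelled Carm1-/-, all below WT. Tfap2a was tested only because of its WT values, so nothing is read from this.

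**Figure D3:**
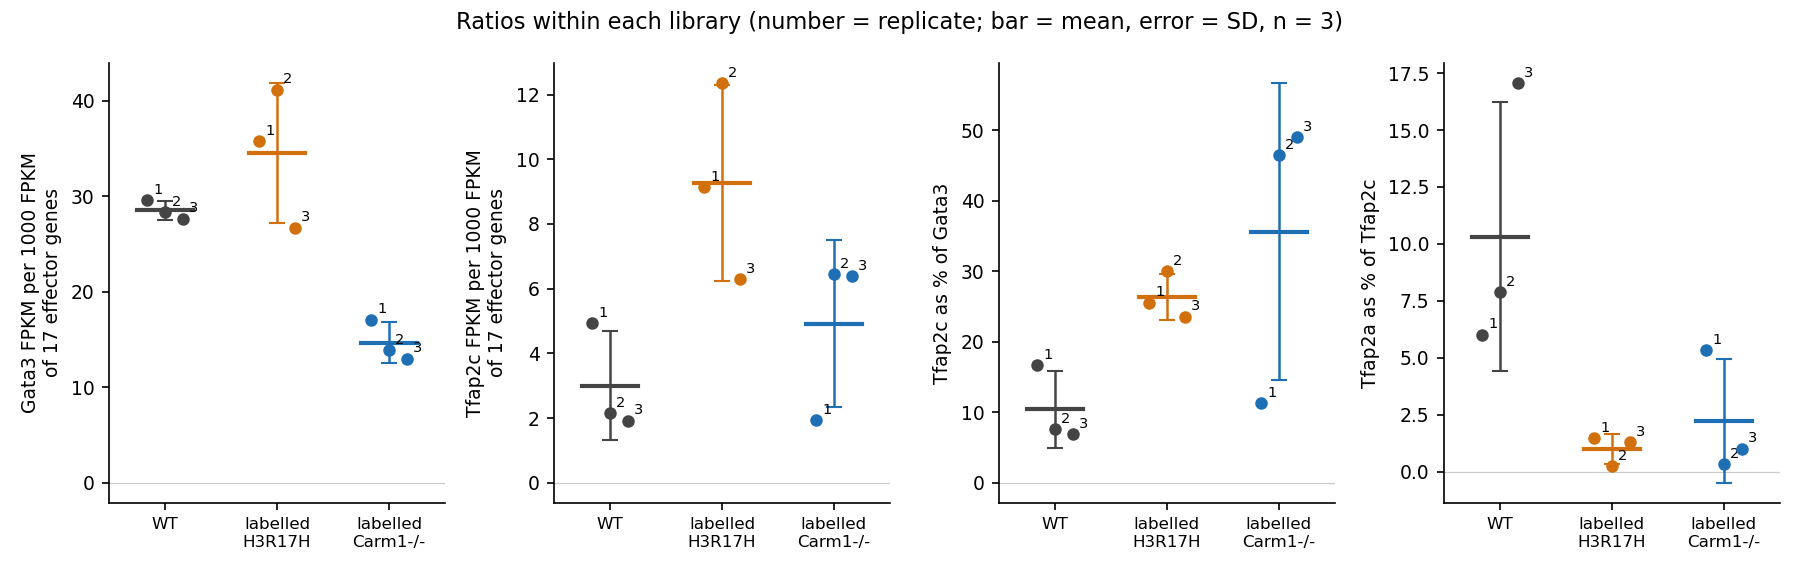
Ratios within each library (y axes; FPKM per 1000 summed FPKM of 17 effector genes, or percent) by label (x axis), with points numbered by replicate, the mean as a bar and the SD as an error bar (n = 3). Gata3 per 1000 FPKM of effector genes lies at 27.7 to 29.6 in WT and at 13.01 to 17.1 in the libraries labelled Carm1-/-, and Tfap2c reaches 46.5% and 49.0% of Gata3 in replicates 2 and 3 of that label.

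The low factors Tfap2a and Gata2 had lower values than WT against the effector genes in every edited library. Both were tested only because of their WT values, and Gata2 was listed at 0 in replicates 2 and 3 of both edited labels. Nothing is therefore read from these ratios. Tfap2a was 0.30, 0.17 and 0.33 FPKM per 1000 in WT, 0.13, 0.03 and 0.08 FPKM in H3R17H-labelled libraries and 0.10, 0.02 and 0.06 FPKM in those labelled Carm1-/-. Gata2 was 0.16 to 0.29 FPKM per 1000 in WT and at most 0.11 FPKM in any edited library. Eomes was 0.52 to 0.89 FPKM per 1000 in WT, 0.37 to 0.79 FPKM in H3R17H-labelled libraries and 0.37 to 0.81 FPKM in those labelled Carm1-/-, which overlap throughout.

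Genes upstream of the factors were read as a list. Of 11 inputs from the Hippo and Notch pathways and Klf5, 7 had lower values in H3R17H vs WT and 8 in Carm1-/- vs WT, with medians of -0.11 and -0.29, and 0 passed in either. Yap1, the Hippo effector, stood at 8.73 to 9.80 FPKM in WT, 7.18, 3.10 and 8.24 FPKM in H3R17H-labelled libraries and 3.45, 1.42 and 1.88 FPKM in those labelled Carm1-/-. It was below WT in every edited library (limma adjusted p = 0.508 and 0.2). Its difference in Carm1-/- vs WT was -1.69 on the log2(FPKM + 1) scale, larger in size than that of any of the 6 factors. That scale understates the change of low genes such as Gata2 and Tfap2a, so no ranking is read from it. Tead4, the DNA-binding partner of Yap1, overlapped with WT (20.0 to 34.2 FPKM) in H3R17H-labelled libraries (24.1 to 35.0 FPKM) and spread widely in those labelled Carm1-/- (31.8, 38.4 and 7.48 FPKM). Notch1, a receptor that also feeds Cdx2, was 0.38 to 0.97 FPKM in WT and 1.37, 2.91 and 2.23 FPKM in the libraries labelled Carm1-/-.

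Among 12 other trophoblast transcription factors 9 were tested, and none passed. In H3R17H vs WT 4 had lower values and 5 higher ones, with a median of 0.19, and in Carm1-/- vs WT 6 and 3, with a median of -0.85. Id2 had the lowest p of the list in H3R17H vs WT. It was 308 to 536 FPKM in WT and 39.3 to 74.5 FPKM in H3R17H-labelled libraries, a difference of -2.95 (limma adjusted p = 0.223). In those labelled Carm1-/- it was 296, 32.4 and 25.7 FPKM, a difference of -2.72 (limma adjusted p = 0.266). Grhl1, a grainyhead factor of epithelia, was 3.67 to 7.99 FPKM in WT and 0.79 to 1.204 FPKM in H3R17H-labelled libraries. In those labelled Carm1-/- Grhl1 was 2.63, 0.18 and 0.48 FPKM. Ets2, a factor needed for trophoblast stem cells, was 1.81 to 3.46 FPKM in WT and 0.27 to 0.51 FPKM in H3R17H-labelled libraries. In those labelled Carm1-/- it was 4.42, 0 and 0.62 FPKM, with replicate 1 above WT. Sox15, a factor of trophoblast giant cell differentiation, was higher in every edited library than in WT (40.3 to 47.3 FPKM). It was 195, 153 and 85.4 FPKM in H3R17H-labelled libraries and 49.8, 259 and 166 FPKM in those labelled Carm1-/-. Hand1, which drives giant cells, was listed at 0 in all WT libraries and in replicate 1 labelled H3R17H, stood at 2.19 and 3.30 FPKM in replicates 2 and 3 of that label, and at 0.998, 11.4 and 5.63 FPKM in those labelled Carm1-/-.

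Of the 17 effector genes 14 had lower values in H3R17H vs WT, with a median of -0.46, against 52.3% of all tested genes, whose median was -0.03. Markers of the other lineages had lower values at similar rates, 8 of 10 for the epiblast (median -0.50) and 7 of 10 for the primitive endoderm (median -0.63). In Carm1-/- vs WT it was 12 of 17, with a median of -0.48, against 53.7% of all tested genes, with 6 of 10 epiblast markers (median -0.28) and 7 of 10 primitive endoderm markers (median -0.23). In both comparisons 0 genes of these lists passed. Krt18, an intermediate filament of the outer layer, was 2612 to 4637 FPKM in WT, 620, 837 and 2243 FPKM in H3R17H-labelled libraries and 4153, 1023 and 1351 FPKM in those labelled Carm1-/-. As for Cdx2 and Gata3, replicates 2 and 3 of that label were far below replicate 1, which for Krt18 lay within the WT range.

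Relatives of the factors were mostly scarce. Of 11 paralogues 6 were in the table and 4 were tested. Gata6, the primitive endoderm relative of Gata3, had higher values in all libraries labelled H3R17H (36.1 to 52.4 FPKM) than in WT (21.7 to 29.1 FPKM), with a difference of 0.75 (SE 0.29, limma adjusted p = 0.305). It overlapped with WT in those labelled Carm1-/- (20.8, 40.1 and 33.2 FPKM). Gata1 stood at 7.63 to 16.9 FPKM in WT, above Gata2 in every library, and overlapped with WT in both edited groups. Tfap2e did not exceed 0.77 FPKM in WT, and ranged from 0.83 to 2.54 FPKM in H3R17H-labelled libraries.

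Markers of other cells were summed in each library. The 10 epiblast markers came to 213 to 301 FPKM in WT, 226 to 246 FPKM in H3R17H-labelled libraries and 165, 296 and 205 FPKM in those labelled Carm1-/-. The 11 primitive endoderm markers in the table came to 64.1 to 86.5, 52.0 to 76.5 and 58.1 to 81.0 FPKM in the same order, all overlapping. Such sums rest on the most abundant genes, and single markers differed more. Tdgf1 and Pdgfra had the lowest p of their lists in H3R17H vs WT. Tdgf1, a Nodal co-receptor of the epiblast, was 39.9 to 56.1 FPKM in WT and 5.94 to 18.4 FPKM in H3R17H-labelled libraries, a difference of -2.10 (limma adjusted p = 0.252). Pdgfra, a receptor of the primitive endoderm, was 6.05 to 9.44 FPKM in WT and 0.007 to 1.82 FPKM there, a difference of -2.33 (limma adjusted p = 0.175). In those labelled Carm1-/- both overlapped with WT, Tdgf1 at 7.56, 79.5 and 15.2 FPKM and Pdgfra at 7.95, 2.91 and 10.01 FPKM. Pou5f1 and Nanog had higher means in H3R17H-labelled libraries than in WT (92.1 against 64.8 and 54.04 against 47.7 FPKM), with overlap. Gata6 was higher there without overlap, while 8 of 10 epiblast and 7 of 10 primitive endoderm markers had lower values. Of 6 oocyte markers 3 were in the table. Their sum was 0.27 to 1.31 FPKM in WT and 0.18 to 1.32 FPKM in H3R17H-labelled libraries, and 2.27, 22.1 and 7.03 FPKM in those labelled Carm1-/-, mainly Zp3 (1.80, 20.0 and 4.73 FPKM), while Gdf9 was at most 0.03 FPKM there. It was highest where Cdx2 and Gata3 were low, and its part in the result was not tested.

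Profiles over the 9 libraries were compared as the root mean square difference between standardized log2(FPKM + 1) values, where 0 is an identical shape. This is a description over libraries that share labels. Among the factors Gata2 and Tfap2a were nearest to each other (0.28), followed by Cdx2 and Gata3 (0.53). The 5 pairs with Tfap2c were the 5 farthest (1.499 to 1.82). Gata2 and Tfap2a lay near or at 0 in most edited libraries and were tested only because of their WT values. A likeness between them, or of other genes to them, is therefore not read as a result. The gene nearest to Gata2 was Pkp4, a junction plaque protein of the plakophilin family (0.23), followed by Calm2 (0.30), a calmodulin gene, and Cryz (0.30). Nearest to Tfap2a were Mdh1 (0.20), the cytosolic malate dehydrogenase, Hk2 (0.25), a hexokinase that starts glycolysis, and Ints10 (0.28). Mdh1 stood at 111 to 137 FPKM in WT, 60.7 to 76.3 FPKM in H3R17H-labelled libraries and 99.8, 56.2 and 76.1 FPKM in those labelled Carm1-/-.

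Cdx2 was nearest to Sh3d21 (0.18), Myo1c (0.22), a class I myosin, and Iars2 (0.24), the mitochondrial isoleucyl-tRNA synthetase. Sh3d21 was highest in replicate 1 labelled Carm1-/- (41.7 FPKM) and lowest in replicates 2 and 3 (8.56 and 7.32 FPKM), as Cdx2 was. Gata3 was nearest to Bphl (0.22), Iqgap1 (0.24), a scaffold of the actin cytoskeleton, and Zdhhc4 (0.27). Iqgap1 stood at 77.8 to 85.4 FPKM in WT, 45.4 to 62.1 FPKM in H3R17H-labelled libraries and 88.5, 30.6 and 31.1 FPKM in those labelled Carm1-/-. Eomes was nearest to Ctnna1 (0.32), the alpha catenin of adherens junctions, Cnnm4 (0.34) and Trappc3 (0.37). Tfap2c had the most distant neighbours, Bcat1 (0.41), an amino acid transaminase, Psmd8 (0.44), a proteasome subunit, and Alkbh3 (0.47). Bcat1 stood at 16.6 to 41.7 FPKM in WT and 41.9, 76.6 and 64.8 FPKM in H3R17H-labelled libraries.

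**Figure D4:**
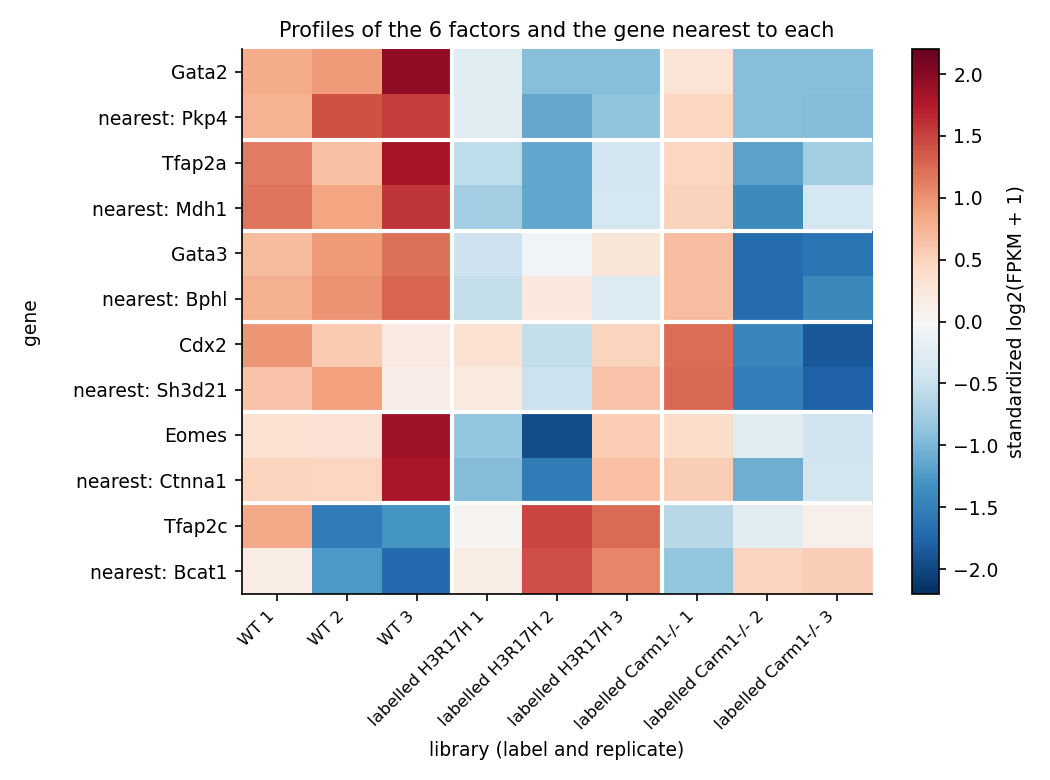
Standardized log2(FPKM + 1) (colour; red above and blue below the gene's own mean) of the 6 factors and of the gene nearest to each (rows) in the 9 libraries (columns, by label and replicate). Gata2 and Tfap2a, both near or at 0 in most edited libraries, have similar shapes (difference 0.28). Cdx2 and Gata3 are lowest in replicates 2 and 3 labelled Carm1-/-, and Tfap2c is highest in replicates 2 and 3 labelled H3R17H.

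Overlapping genes on the opposite strand could add reads to 3 of the factors if counting ignored strand. The strand setting is not given in the sources used here. A gene on the same strand overlaps Gata3, and counting by strand would not separate its reads. Within the Gata3 locus 9230102O04Rik on the same strand was at most 4.41 FPKM and 4930412O13Rik on the opposite strand at most 1.13 FPKM, against at least 73.9 FPKM for Gata3. Gm33460, opposite to Eomes, was at most 0.76 FPKM, against at least 1.66 FPKM for Eomes. Genes annotated opposite to Tfap2a were not analysed here.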

How the data were processed

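RNA was measured in 9 libraries, 3 each titled WT, H3R17H and Carm1-/-, and samples were grouped by title. The deposited values are FPKM, in a single table that holds every library. Bowtie 0.12.2, mm10 and GRCm38 are listed in the submitters' processing notes without saying what each was used for. Quantifier, annotation, filters and strand setting: not given in the sources used here. Because FPKM is relative to the library total, changes in the most abundant genes move all others. Depth could not be recovered from the steps of low values: of 897 genes under 0.5 FPKM in WT replicates 1 and 2, at most 5 shared a ratio to 3 decimals. Intervals that need counts are therefore not given.

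The test took 11850 of 16070 rows, those that reached 1 FPKM in 3 or more libraries, all 6 factors among them. Values were log2(FPKM + 1), and a difference on this scale understates the change of low genes. All 9 libraries entered a single limma 3.58.1 fit (R 4.3.3) with an intensity trend, two-sided, and p-values were adjusted by Benjamini-Hochberg over the tested genes. The 3 comparisons were contrasts of it. The fit was tested on simulated data. The factors and gene lists were chosen with earlier results of these data known, so no count over them is independent support. Named genes are the 6 factors, the 3 nearest profiles of each (among genes averaging at least 5 FPKM, without predicted models) and up to 4 genes per list with the smallest p, of which not every one is named. Tead4, Nanog and Gdf9 as examples and the ratios were chosen after their values were seen. Alternatives were a pseudocount of 0.1, no filter, median-of-ratios scaling, only the groups compared, a replicate block, a term for Y-linked transcripts and each library left out. Other steps used pandas 2.3.3, numpy 2.4.6 and matplotlib 3.10.9 under Python 3.11.15. Coordinates are 1-based, from GENCODE M21.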

Additional observations from a re-analysis of the deposited data

How the results depend on the processing

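The 6 factors in 3 comparisons gave 270 values under the 15 alternatives, of which 260 kept their direction and their side of the threshold, 4 newly passed and 6 turned sign. The 4 that passed were Gata3, Cdx2, Gata2 and Tfap2a in Carm1-/- vs WT without replicate 1 labelled Carm1-/-, the only library of that label with Y-linked transcripts. The turns were Cdx2 in H3R17H vs WT (0.69 with the term for Y-linked transcripts), Tfap2c in Carm1-/- vs WT (-0.072 with that term, and -0.0032 to 0.45 over the fits without 1 library, lowest without WT replicate 2), Gata2 in Carm1-/- vs H3R17H (-0.18 to 0.33 without 1 library, lowest without replicate 1 labelled Carm1-/-), and Tfap2a there (-0.21 to 0.42, negative without that library and, at -0.0058, without replicate 2 labelled H3R17H); the cause was not tested. The term for Y-linked transcripts rests on replicate 1 of each edited group, and the one labelled H3R17H also held Xist (4.84 FPKM). With a pseudocount of 0.1 the difference of Gata2 was -3.75 and -3.42 in the 2 comparisons with WT and that of Tfap2a -2.60 and -2.39, that of Cdx2 was -2.48 in Carm1-/- vs WT and -1.81 in Carm1-/- vs H3R17H, and none passed.

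Called genes over the whole table rose from 0 in H3R17H vs WT to 240 with only the groups compared, and lay between 0 and 125 over the fits without 1 library, the most without replicate 1 labelled Carm1-/-. In Carm1-/- vs WT there was 1 (Raver1) with a pseudocount of 0.1 and 0 to 549 without 1 library, the most again without that replicate. In Carm1-/- vs H3R17H there was 1 (Raver1) with a pseudocount of 0.1, 2 (Fbxo2 and Raver1) with median-of-ratios scaling and 0 to 10 without 1 library. Raver1 and Fbxo2 were named after their values were seen. Of the 18 nearest genes 13 were named again with a pseudocount of 0.1. The replicate block left 0 called genes in each comparison, and the titles share only a number: of 9 pairs of same-numbered libraries 1 had deviations correlated above 0.1 (range -0.05 to 0.18). Read depth is unknown and limits Gata2 and Tfap2a most, which lie near or at 0 in edited libraries.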
